A study of Mus musculus with 4 samples.

Results

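The genes described here are 10 members of the NRF2 axis, chosen by symbol: the small Maf factors Maff, Mafg and Mafk, the activator Nfe2l2 (which encodes NRF2), its inhibitor Keap1, the repressor Bach1, and the target genes Nqo1, Hmox1, Txnrd1 and Srxn1. Each symbol matched 1 row of the deposited table, so 10 of 55335 identifiers were used as members, and all 10 passed the filter on low values. The series measured RNA from a mouse colon carcinoma line, CT26, in 4 libraries. The group labelled FOSL2-KO and chemoradiotherapy held CT26_102_R and CT26_CTL_R, and the group labelled FOSL2-WT and PBS held CT26_102 and CT26_CTL. By the labels, genotype and treatment changed together, so their effects cannot be told apart. Sample titles also divide the libraries by their first part, called the stem here, CT26_102 or CT26_CTL, and no label explains it. The labels give neither a dose nor a time for the chemoradiotherapy, nor how FOSL2 was lost, and the design text speaks of knockdown. The growth protocol calls the cells mesenchymal, and all 4 libraries come from 1 cell line.

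NRF2 is a basic leucine zipper protein that KEAP1 binds and presents for degradation. When electrophiles or oxidants modify KEAP1, NRF2 accumulates, pairs with a small Maf protein and binds antioxidant response elements near genes of detoxification, glutathione and thioredoxin metabolism. BACH1 pairs with the same small Maf proteins at many of these elements and represses transcription, above all of Hmox1, until heme releases it. The small Maf proteins have no activation domain of their own, and the element they bind overlaps in sequence with the AP-1 site bound by FOS and JUN proteins, of which FOSL2 is one.

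RefSeq promoter windows of GRCm38.p6, 250 bases before to 50 after each start, were found for 9 of the 10 members (all but Hmox1), in 13 windows. Searched on both strands, TGACNNNGC, the core of the antioxidant response element, was in 6 of these 13 windows, 1 each of Maff, Mafg, Mafk, Nfe2l2, Txnrd1 and Srxn1. The same letters were in 12.4% of all 32851 windows in the table. The AP-1 site TGACTCA was in 1 member window, that of Srxn1, which held 2 copies, against 5.20% of all windows. TGCTGAC, the start of a Maf recognition element, was in none of the 13 and in 4.67% of all. TGCTGAC and TGACNNNGC share their TGAC where both occur, and TGACTCA followed by GC is also a TGACNNNGC. The windows of Maff, the member with the largest difference, and of Txnrd1 and Srxn1 are shown with matches in capitals. Txnrd1, Srxn1 and Nqo1 were the members called higher in title stem CT26_102, and the Nqo1 window, not shown, held none of the motifs searched. Windows of Mafg, Mafk and Nfe2l2, also not shown, held the core, and these genes were called neither between labelled groups nor between stems. Sequence outside these windows was not searched, so a missing match does not show that a gene lacks the element.
Maff, chr15:79346371-79346670, plus strand: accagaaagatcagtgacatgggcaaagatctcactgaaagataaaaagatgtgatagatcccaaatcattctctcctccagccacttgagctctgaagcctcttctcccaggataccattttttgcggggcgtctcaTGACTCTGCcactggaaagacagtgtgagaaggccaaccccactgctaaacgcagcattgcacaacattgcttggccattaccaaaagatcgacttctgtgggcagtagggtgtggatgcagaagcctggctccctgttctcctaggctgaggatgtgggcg
Txnrd1, chr10:82858956-82859255, plus strand: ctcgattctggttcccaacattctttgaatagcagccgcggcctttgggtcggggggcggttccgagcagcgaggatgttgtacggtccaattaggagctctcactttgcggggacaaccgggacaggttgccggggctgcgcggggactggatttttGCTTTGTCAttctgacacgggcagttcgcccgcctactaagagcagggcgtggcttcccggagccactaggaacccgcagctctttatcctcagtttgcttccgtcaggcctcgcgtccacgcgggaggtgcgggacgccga
Srxn1, chr2:152105274-152105573, plus strand: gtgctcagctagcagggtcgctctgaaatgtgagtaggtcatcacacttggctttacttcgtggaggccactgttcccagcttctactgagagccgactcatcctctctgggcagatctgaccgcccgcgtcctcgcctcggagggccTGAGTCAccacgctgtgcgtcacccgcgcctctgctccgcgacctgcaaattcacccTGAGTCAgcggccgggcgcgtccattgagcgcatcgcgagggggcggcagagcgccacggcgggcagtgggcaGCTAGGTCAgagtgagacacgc
Positions count from the start site and name the leftmost base of a match. In Maff the core reads TGACTCTGC at -112, while the 2 further Maff windows held no match. In Txnrd1 the match at -92 reads GCTTTGTCA, the core on the other strand, while the further Txnrd1 windows held no match. In Srxn1 both AP-1 sites read TGAGTCA, the nearer one at -45, and the core GCTAGGTCA begins at base 29 after the start. These matches are letters in a sequence, and binding was not measured.

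Depth was estimated at 21.6 M to 26.4 M fragments (M, mega), so that member values rested on about 157 fragments (Nqo1 in CT26_CTL_R) to about 7056 (Txnrd1 in CT26_102_R). The targeted gene Fosl2 was at 16.0 FPKM in CT26_102_R and 19.2 in CT26_CTL_R, against 9.35 in CT26_102 and 12.7 in CT26_CTL, so the transcript rose in the libraries labelled FOSL2-KO (log2 difference 0.64 ± 0.13, limma adjusted p = 0.0444). A direction given for that group is therefore that of libraries labelled so. Within each labelled group, the Fosl2 value was the lower one in stem CT26_102. The labelled colon cell type was borne out by some markers and not by others: of 11 colon epithelium markers, 3 passed the filter on low values. Krt18 was between 34.7 and 76.5 FPKM, Krt20 between 24.5 and 36.8, and Krt8 between 0.461 and 3.82. Epcam, Cdx1 and Cdx2 were at 0 in all 4 libraries. The mesenchymal marker Vim was between 503.1 and 782.0 FPKM. Of 7 lymphoid, 6 endothelial and 6 erythroid markers, 0 passed the filter on low values, and their sums per library stayed between 0.0462 and 2.01 FPKM. Of 7 myeloid markers 3 passed the filter, and Cd68, a lysosomal protein of macrophages and other cells, was at 63.9 and 86.4 FPKM in CT26_102_R and CT26_CTL_R, against 8.49 and 28.3 in CT26_102 and CT26_CTL (adjusted p = 0.0252). The summed myeloid markers were at 120.4 and 92.0 FPKM in CT26_102_R and CT26_CTL_R, against 25.4 and 42.7 in CT26_102 and CT26_CTL. The list did not move as one: Lyz2, lysozyme, was at 53.1 and 4.36 FPKM in CT26_102_R and CT26_CTL_R, against 15.0 and 13.1 in CT26_102 and CT26_CTL, and Csf1r was at 1.998 and 0.158, against 1.10 and 0.965. Macrophage gene Adgre1 and myeloid integrin gene Itgam were at most 0.16 FPKM in every library, and the part of such cells in the results was not tested. Of 7 fibroblast markers 5 passed the filter and 1, Col1a2, fell, and their sum was at 107.3 and 81.0 FPKM in CT26_102_R and CT26_CTL_R, against 232.6 and 113.5 in CT26_102 and CT26_CTL.

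Between the labelled groups, Maff and Hmox1 were the members that rose with suffix R (labelled FOSL2-KO and chemoradiotherapy), by 2.33 and 1.19 on the log2(FPKM + 1) scale. Nfe2l2, the gene of NRF2 itself, was at 1.05 and 1.03 times its level without the suffix, and Nqo1, Txnrd1 and Srxn1 did not pass the test. Of the 10 members, 2 rose and 0 fell, and of all 11955 tested genes 7.57% rose and 5.32% fell. The unadjusted limma p was under 0.05 for 3 members higher and 0 lower, and for 4315 of the 11955 tested genes in either direction. The test was limma's moderated fit with terms for the labelled group and the title stem, adjusted by Benjamini-Hochberg over all tested genes, with 2 libraries in each group. That fit has 1 residual degree of freedom and takes 4.01 from the spread of all genes. The residual is the disagreement between the stems in the difference with suffix R, not a spread of replicates. With the labelled group as the only term, limma called 0 of the 10 members (2 had an unadjusted p under 0.05), and 1 gene in all. Fitted to all 27670 genes above 0 in any library, with both terms, it also called 0 members (2 had an unadjusted p under 0.05), and 0 genes in all.

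**Figure D1:**
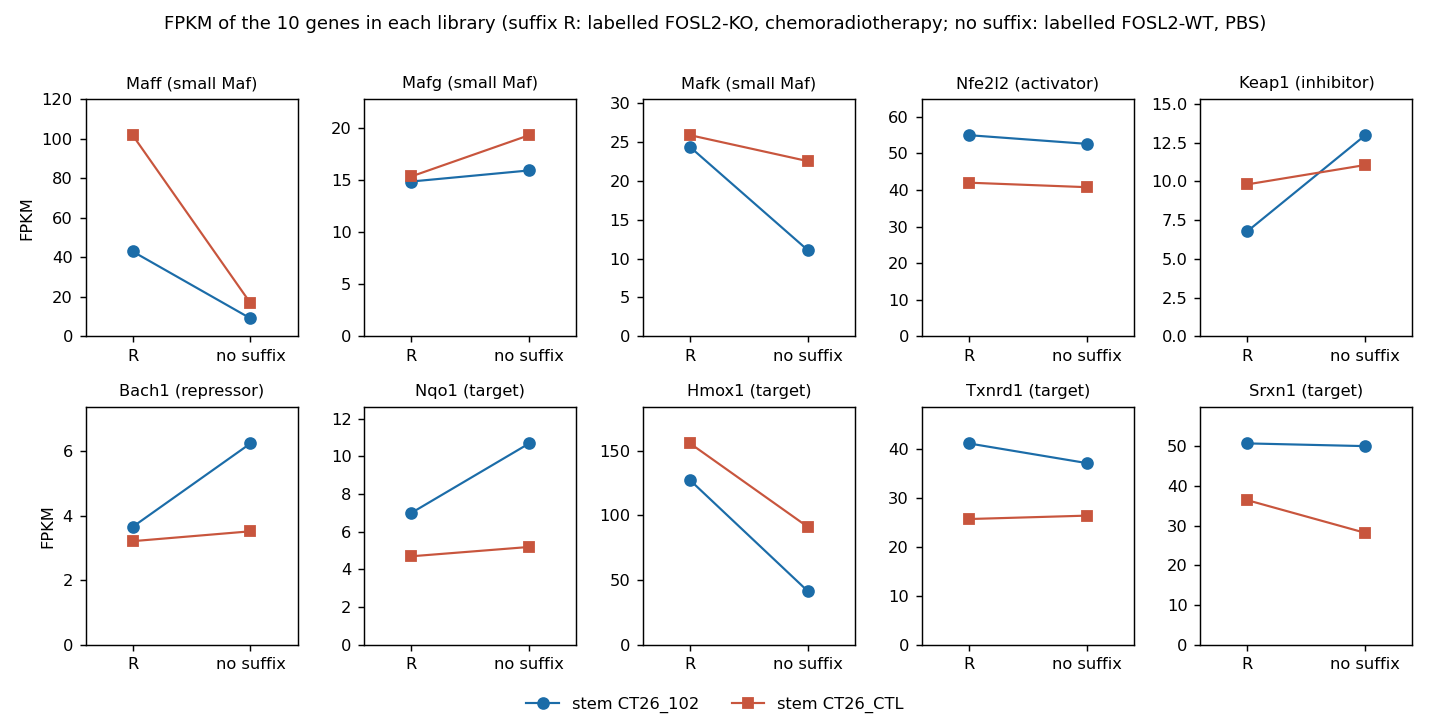
FPKM of the 10 genes (y axis, linear from 0) in the libraries with suffix R, labelled FOSL2-KO with chemoradiotherapy, and in those without it, labelled FOSL2-WT with PBS (x axis). Each point is 1 library and each line joins the libraries of 1 title stem, with CT26_102 as circles and CT26_CTL as squares. Maff reached 43.0 and 101.8 FPKM with suffix R, against 9.05 and 16.8 without, while the lines of Nfe2l2 are nearly flat.

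Maff (ENSMUSG00000042622, GRCm38 chromosome 15, 79346621 to 79359076, plus strand) was at 43.0 FPKM in CT26_102_R and 101.8 in CT26_CTL_R, against 9.05 in CT26_102 and 16.8 in CT26_CTL. Both libraries with suffix R lay above both others, and the ratio was 4.75 in stem CT26_102 and 6.07 in stem CT26_CTL. The log2 difference was 2.33 ± 0.15 (SE, n = 2 per group, limma adjusted p = 0.0121), rank 22 of 11955 when tested genes are ordered from the most positive difference. Among small Maf genes, Maff is the one known to be induced by cytokines and stress in several cell types.

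Mafk (ENSMUSG00000018143, chromosome 5, 139791513 to 139802653, plus strand), known as the p18 subunit of the erythroid factor NF-E2, was at 24.4 FPKM in CT26_102_R and 25.9 in CT26_CTL_R, against 11.1 in CT26_102 and 22.6 in CT26_CTL. The groups did not overlap, but the ratio was 2.20 in stem CT26_102 and 1.15 in stem CT26_CTL, and the log2 difference of 0.63 ± 0.23 did not pass (limma adjusted p = 0.124). Mafk shares 169 exonic bases with Tmem184a on the opposite strand, which was at 10.6 and 6.41 FPKM in CT26_102_R and CT26_CTL_R, against 5.34 and 9.26 in CT26_102 and CT26_CTL. Without a stated strand, reads in the shared bases cannot be assigned.

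Mafg (ENSMUSG00000051510, chromosome 11, 120625117 to 120633600, minus strand), the small Maf gene most widely linked to NRF2 dimers, was at 14.9 FPKM in CT26_102_R and 15.4 in CT26_CTL_R, against 15.9 in CT26_102 and 19.3 in CT26_CTL. Its values with suffix R were the lower ones, and the log2 difference of -0.20 ± 0.13 did not pass (limma adjusted p = 0.323). Mafg overlaps Sirt7 on the same strand by 124 exonic bases.

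FPKM is scaled to length, here to all annotated exons of a gene, so levels of different genes compare only roughly: the exons come to 2594 bases in Maff, 5613 in Mafg, 3901 in Mafk and 3796 in Nfe2l2, against 1958, 4923, 3097 and 2475 in the longest transcript of each. The sum of the 3 small Maf genes was 82.2 FPKM in CT26_102_R and 143.1 in CT26_CTL_R, against 36.1 in CT26_102 and 58.7 in CT26_CTL. Maff made up 52.3% and 71.2% of that sum in CT26_102_R and CT26_CTL_R, against 25.1% and 28.6% in CT26_102 and CT26_CTL, and so was the most abundant of the 3 in both libraries with suffix R. Without the suffix, Mafg led in CT26_102 with 44.2% of the sum and Mafk in CT26_CTL with 38.5%. The sum was 1.495 and 3.41 times the Nfe2l2 level in CT26_102_R and CT26_CTL_R, against 0.685 and 1.44 times in CT26_102 and CT26_CTL. These shares are of transcripts, and no test was run on them.

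**Figure D2:**
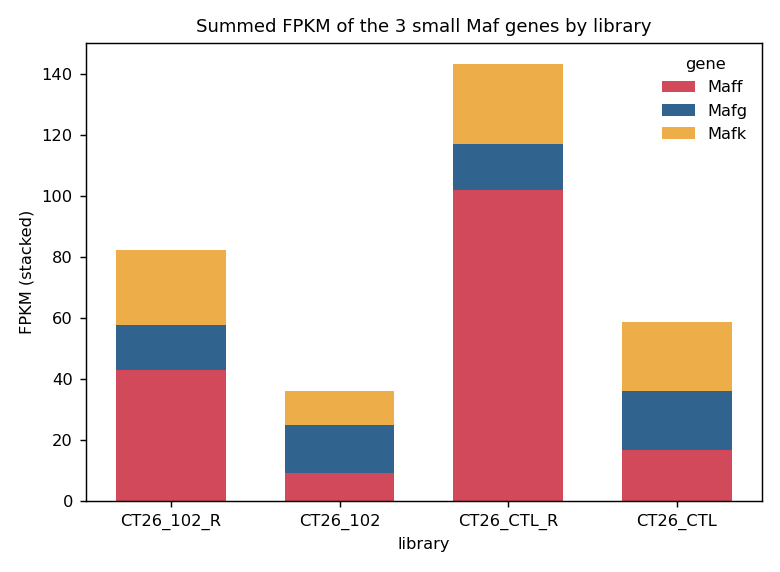
Stacked FPKM (y axis, from 0) of Maff, Mafg and Mafk in each library (x axis, 1 bar per library, suffix R left of its partner). The bars reach 82.2 and 143.1 FPKM with suffix R, against 36.1 and 58.7 without it, and the Maff segment accounts for 52.3% and 71.2% of the first pair.

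Nfe2l2 (ENSMUSG00000015839, chromosome 2, 75675513 to 75704641, minus strand) was at 55.0 FPKM in CT26_102_R and 42.0 in CT26_CTL_R, against 52.6 in CT26_102 and 40.8 in CT26_CTL. The ratio was 1.05 and 1.03, and the log2 difference was 0.05 ± 0.11 (limma adjusted p = 0.769), with its sign turning to -0.0081 under upper-quartile rescaling. The NRF2 protein is controlled mainly by its stability, which RNA does not show.

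Keap1 (ENSMUSG00000003308, chromosome 9, 21229730 to 21239361, minus strand), the substrate adaptor of the CUL3 ubiquitin ligase, was at 6.78 FPKM in CT26_102_R and 9.81 in CT26_CTL_R, against 13.0 in CT26_102 and 11.1 in CT26_CTL. The 2 groups did not overlap, with ratios of 0.523 in stem CT26_102 and 0.887 in stem CT26_CTL, but the log2 difference of -0.50 ± 0.20 did not pass (limma adjusted p = 0.145). Its antisense neighbour Gm16754 shares 510 exonic bases with it and was at 0.821 and 1.63 FPKM in CT26_102_R and CT26_CTL_R, against 1.99 and 2.17 in CT26_102 and CT26_CTL, and without a stated strand their reads cannot be told apart there.

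Bach1 (ENSMUSG00000025612, chromosome 16, 87698945 to 87733346, plus strand) was the least abundant member over the 4 libraries, at 3.65 FPKM in CT26_102_R and 3.21 in CT26_CTL_R, against 6.24 in CT26_102 and 3.51 in CT26_CTL. Its value in CT26_102 stood above the other 3, and the log2 difference was -0.37 ± 0.18 (limma adjusted p = 0.206). The Nfe2l2 level was 15.1 and 13.1 times that of Bach1 in CT26_102_R and CT26_CTL_R, against 8.44 and 11.6 times in CT26_102 and CT26_CTL.

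Hmox1 (ENSMUSG00000005413, chromosome 8, 75093621 to 75100589, plus strand), heme oxygenase 1, which breaks heme down to biliverdin, iron and carbon monoxide, was the most abundant member in 3 of the 4 libraries. It was at 127.1 FPKM in CT26_102_R and 155.5 in CT26_CTL_R, against 41.2 in CT26_102 and 90.9 in CT26_CTL. The groups did not overlap, and the ratio was 3.09 in stem CT26_102 and 1.71 in stem CT26_CTL. The log2 difference was 1.19 ± 0.21 (limma adjusted p = 0.0373), rank 230 of 11955 from the most positive.

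Nqo1 (ENSMUSG00000003849, chromosome 8, 107388225 to 107403206, minus strand), a quinone reductase widely used as a readout of NRF2, was at 6.99 FPKM in CT26_102_R and 4.69 in CT26_CTL_R, against 10.7 in CT26_102 and 5.18 in CT26_CTL. It was lower with the suffix in both stems, with ratios of 0.654 and 0.904, but the groups overlapped and the log2 difference of -0.33 ± 0.16 did not pass (limma adjusted p = 0.204).

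Txnrd1 (ENSMUSG00000020250, chromosome 10, 82833951 to 82897712, plus strand), the cytosolic selenoprotein that reduces thioredoxin, was at 41.2 FPKM in CT26_102_R and 25.7 in CT26_CTL_R, against 37.2 in CT26_102 and 26.4 in CT26_CTL. It moved in opposite directions in the stems, by ratios of 1.11 and 0.974, and the log2 difference of 0.05 ± 0.13 (limma adjusted p = 0.783) turned to -0.0059 under upper-quartile rescaling. Srxn1 (ENSMUSG00000032802, chromosome 2, 152105516 to 152111376, plus strand), sulfiredoxin, which repairs overoxidised peroxiredoxins, was at 50.7 FPKM in CT26_102_R and 36.4 in CT26_CTL_R, against 50.1 in CT26_102 and 28.2 in CT26_CTL. Its groups overlapped, and the log2 difference was 0.19 ± 0.14 (limma adjusted p = 0.368).

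Counted by position alone, 3 members (Maff, Mafk and Hmox1) had both libraries with suffix R above both without, and 2 (Mafg and Keap1) had both below. Among all tested genes 22.3% lay wholly above and 21.1% wholly below, so these counts are near the background. The 4 targets did not share a direction: their summed level of 226.0 and 222.3 FPKM in CT26_102_R and CT26_CTL_R, against 139.1 and 150.7 in CT26_102 and CT26_CTL, was 56.2% and 69.9% Hmox1 with the suffix, against 29.6% and 60.3% without it.

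**Figure D3:**
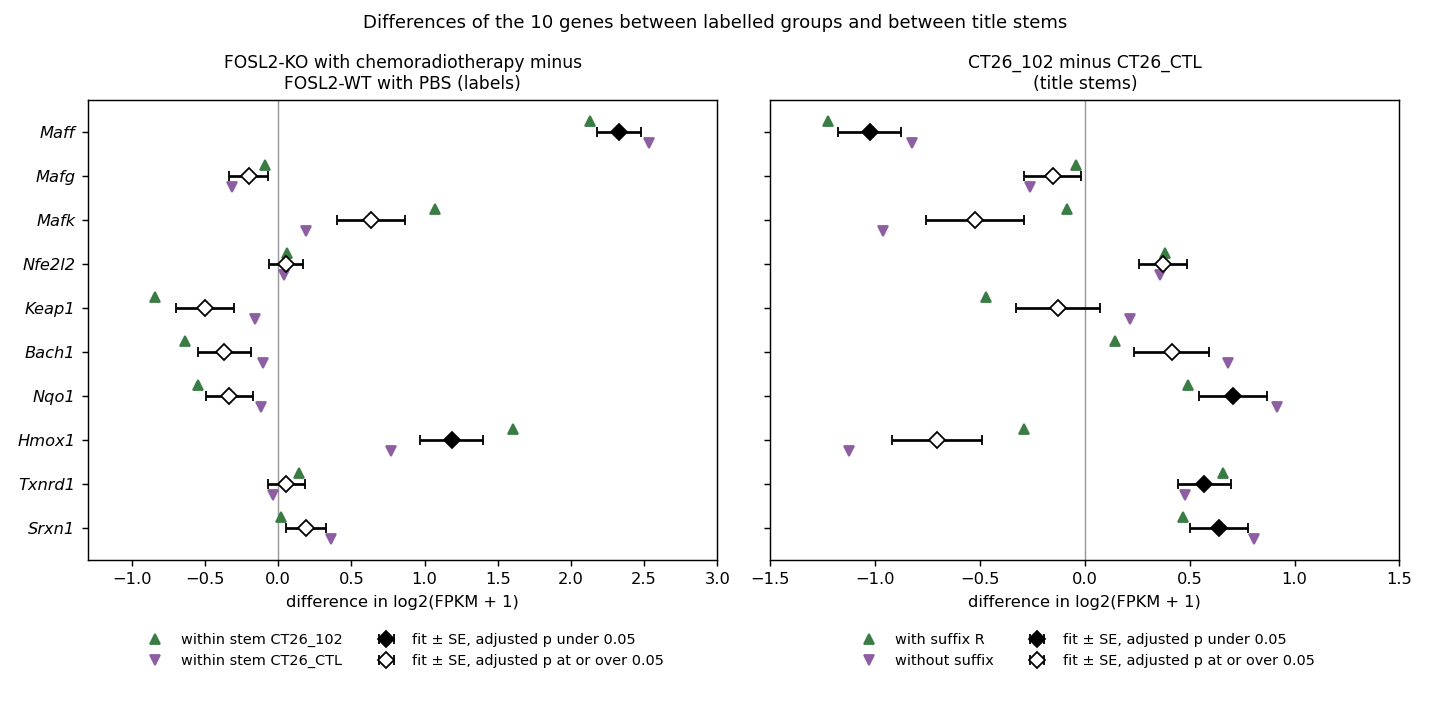
Difference in log2(FPKM + 1) (x axis) for each of the 10 genes (y axis), on the left for libraries with suffix R minus libraries without it, on the right for stem CT26_102 minus stem CT26_CTL. Diamonds with bars are the fit with both terms and its SE, filled where the adjusted p was under 0.05, and triangles are the differences of single pairs of libraries. On the left Maff (2.33) and Hmox1 (1.19) are filled, and on the right Maff (-1.02), Nqo1 (0.70), Txnrd1 (0.57) and Srxn1 (0.64).

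Between the title stems the targets divided otherwise: Nqo1, Txnrd1 and Srxn1 were higher in stem CT26_102, Maff was lower there, and Hmox1 was lower without passing the test. Of the 10 members, 3 were called higher and 1 lower in CT26_102, against 12.5% higher and 9.44% lower among all tested genes. The unadjusted limma p was under 0.05 for 4 members higher and 2 lower, and for 4830 of the 11955 tested genes in either direction. With median-of-ratios rescaling, under which the median difference of all genes was -0.04 in place of 0.05, Maff was the one member called. The differences of Nqo1, Txnrd1 and Srxn1 were then 0.60, 0.46 and 0.52, with adjusted p between 0.0543 and 0.0639. With upper-quartile rescaling all 3 were called (adjusted p between 0.0284 and 0.0398). With the stem as the only term, limma called 0 members (3 had an unadjusted p under 0.05) and 34 genes, and without the filter on low values it called 0 members (6 had an unadjusted p under 0.05, 4 higher and 2 lower) and 0 genes.

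Nqo1 was at 6.99 FPKM in CT26_102_R and 10.7 in CT26_102, against 4.69 in CT26_CTL_R and 5.18 in CT26_CTL. All values of stem CT26_102 lay above those of stem CT26_CTL, at 1.49 times with the suffix and 2.06 times without it, and the log2 difference was 0.70 ± 0.16 (SE, n = 2 per stem, limma adjusted p = 0.0411). Srxn1 was 1.39 and 1.78 times as high in CT26_102 with and without the suffix, a log2 difference of 0.64 ± 0.14 (limma adjusted p = 0.0368). Txnrd1 was 1.60 and 1.41 times as high, a log2 difference of 0.57 ± 0.13 (limma adjusted p = 0.0377).

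Nfe2l2 was 1.31 and 1.29 times as high in stem CT26_102 with and without the suffix, with no overlap between stems, and its log2 difference of 0.37 ± 0.11 had an adjusted p of 0.0757 in the limma fit. Bach1 did not overlap either, at 1.14 and 1.78 times, with a log2 difference of 0.41 ± 0.18 (limma adjusted p = 0.156). In all, 5 members lay wholly above in CT26_102 and 0 wholly below, against 28.0% and 20.9% of all tested genes.

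Maff was lower in stem CT26_102 within each labelled group, at 0.422 times CT26_CTL with the suffix and 0.539 times without it, and the log2 difference was -1.02 ± 0.15 (limma adjusted p = 0.0168). The stems themselves overlapped, since the value of 43.0 FPKM in CT26_102_R exceeded that of 16.8 in CT26_CTL. Hmox1 was at 0.817 and 0.453 times CT26_CTL, with a log2 difference of -0.71 ± 0.21 (limma adjusted p = 0.0729), and passed when genes with a mean FPKM of at least 5 alone were tested (adjusted p = 0.0495). Mafk was at 0.941 and 0.491 times, with a log2 difference of -0.52 ± 0.23 (limma adjusted p = 0.160). Mafg (-0.15 ± 0.13, adjusted p = 0.436) and Keap1 (-0.13 ± 0.20, adjusted p = 0.661) did not pass in that limma fit either, and Keap1 was at 0.692 times CT26_CTL with the suffix but 1.17 times without it.

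Of the other CNC factors, which can pair with small Maf proteins, 1 passed the filter. Nfe2l1, which encodes the related factor NRF1 of proteasome recovery, was at 7.68 and 5.94 FPKM in CT26_102_R and CT26_CTL_R, against 6.86 and 5.70 in CT26_102 and CT26_CTL (limma adjusted p = 0.626). Nfe2, Nfe2l3 and Bach2 were below 0.3 FPKM in every library and were not tested. Of the large Maf factors, Mafa was between 0.555 and 1.21 FPKM, Maf was at or below 0.017, and Nrl was at 0 in all 4 libraries.

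Across the lists of the wider pathway, which hold 111 genes besides the 10 members, 84 were tested, 8 rose and 6 fell with suffix R. Those are 9.52% and 7.14%, near the 7.57% and 5.32% of all tested genes, and the median log2 difference was -0.05 against 0.00 for all tested genes. The members of these lists thus went in both directions.

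Of 12 genes that regulate NRF2 stability, 1 rose and 0 fell. That gene was Fbxw7, a substrate receptor of SCF ubiquitin ligases.

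Of 21 tested genes of glutathione synthesis and use, 2 rose and 1 fell. Gss, glutathione synthetase, was at 14.3 and 16.7 FPKM in CT26_102_R and CT26_CTL_R, against 5.13 and 5.37 in CT26_102 and CT26_CTL, a log2 difference of 1.39 ± 0.13 (limma adjusted p = 0.0179). Gclc, the catalytic subunit of the preceding and rate-limiting step, fell to 10.5 and 7.08 FPKM in those libraries, against 16.4 and 13.5 (log2 difference -0.72 ± 0.14, limma adjusted p = 0.0413). The omega-class transferase Gsto1 was at 160.5 and 220.4 FPKM in CT26_102_R and CT26_CTL_R, against 65.9 and 132.6 in CT26_102 and CT26_CTL (limma adjusted p = 0.0309). Gpx1, a glutathione peroxidase named after its values were seen, was at 161.8 and 278.4 FPKM in CT26_102_R and CT26_CTL_R, against 117.7 and 30.6 in CT26_102 and CT26_CTL (limma adjusted p = 0.105), so that CT26_CTL stood apart from the other 3.

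Of 15 genes of the thioredoxin and peroxiredoxin system, 2 rose and 1 fell. Txnip, which binds and inhibits thioredoxin, was at 197.8 and 229.3 FPKM in CT26_102_R and CT26_CTL_R, against 56.4 and 121.5 in CT26_102 and CT26_CTL (limma adjusted p = 0.0328). Sesn2, sestrin 2, a stress protein also induced by p53, was at 71.6 and 51.3 FPKM, against 24.3 and 26.9 (limma adjusted p = 0.0286). Txnrd3 fell to 5.09 and 3.93 FPKM, against 9.14 and 7.49 (limma adjusted p = 0.0351), while Txnrd1 did not pass.

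Of 7 genes that supply NADPH, 0 rose and 3 fell. Idh1, cytosolic isocitrate dehydrogenase, was at 12.8 and 4.62 FPKM in CT26_102_R and CT26_CTL_R, against 25.9 and 12.7 in CT26_102 and CT26_CTL, a log2 difference of -1.12 ± 0.15 (limma adjusted p = 0.0241). G6pdx and Tkt, enzymes of the pentose phosphate pathway, had log2 differences of -0.76 and -0.74 (limma adjusted p = 0.0337 and 0.0385). The list median was -0.55.

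Of 9 tested genes of heme and iron handling, 2 rose, Hmox1 and Ftl1. The ferritin light chain gene Ftl1 was at 3235 and 3496 FPKM in CT26_102_R and CT26_CTL_R, against 2517 and 2650 in CT26_102 and CT26_CTL (log2 difference 0.38 ± 0.06, limma adjusted p = 0.0297), and it may share reads with ferritin pseudogenes. The heavy chain gene Fth1 moved in opposite directions in the stems. It was at 258.8 and 662.9 FPKM in CT26_102_R and CT26_CTL_R, against 367.4 and 501.6 in CT26_102 and CT26_CTL (limma adjusted p = 0.884). Of 15 tested genes of detoxification and efflux, Ephx1, microsomal epoxide hydrolase, rose to 263.1 and 145.4 FPKM, against 167.5 and 82.0 (limma adjusted p = 0.0271), and Ugt1a7c fell, though it shares exons with other Ugt1a genes. Of 6 other genes linked to NRF2, Osgin1, a growth inhibitor induced by oxidants, was at 9.70 and 4.23 FPKM in CT26_102_R and CT26_CTL_R, against 3.49 and 0.954 in CT26_102 and CT26_CTL (log2 difference 1.34 ± 0.14, limma adjusted p = 0.0195). Of the 3 tested genes for superoxide and peroxide enzymes, none passed between labelled groups, and the lowest limma adjusted p was 0.335, for Cat. Between stems, Cat was higher in CT26_102 (log2 difference 0.64 ± 0.16, limma adjusted p = 0.0482).

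**Figure D4:**
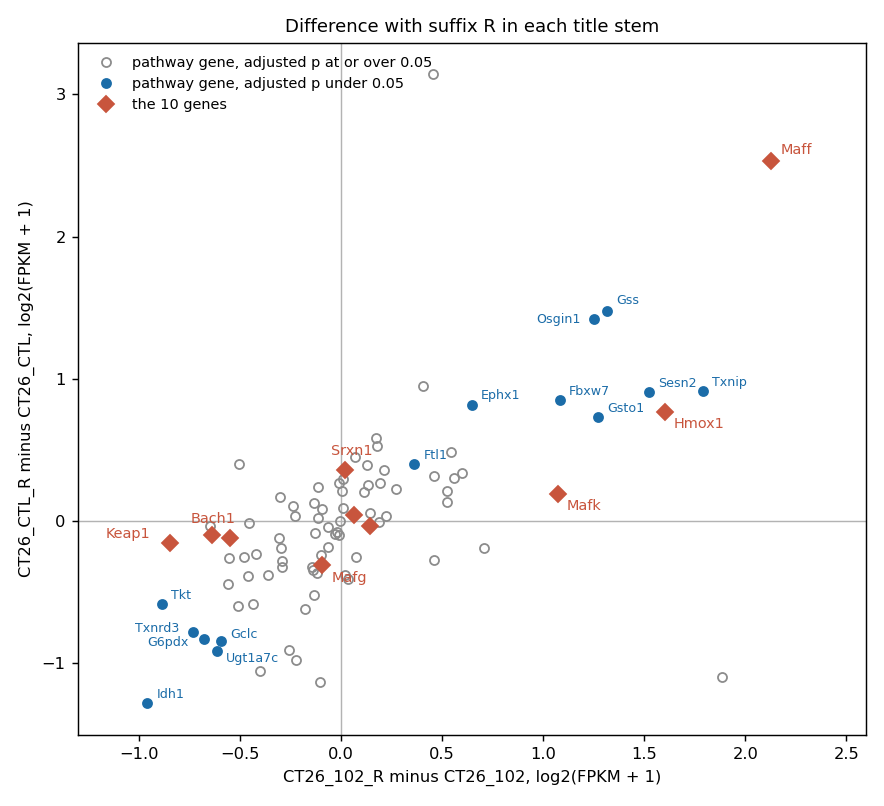
Difference in log2(FPKM + 1) of CT26_102_R minus CT26_102 (x axis) and of CT26_CTL_R minus CT26_CTL (y axis) for the 84 tested pathway genes (circles, filled where the adjusted p was under 0.05 in the fit with both terms) and the 10 members (diamonds). Of the called pathway genes 8 lie to the upper right and 6 to the lower left, and Maff lies at 2.13 and 2.53. Most called genes lie farther out than most uncalled ones, but Ftl1, at 0.36 and 0.40, lies among uncalled genes. The fit favours genes whose pairs agree, so these quadrants follow from it.

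The summed fibroblast markers were at 107.3 and 232.6 FPKM in CT26_102_R and CT26_102, against 81.0 and 113.5 in CT26_CTL_R and CT26_CTL, and Col3a1 among them at 19.8 and 53.0 against 0.144 and 0.568, and their part in the differences between stems was not tested. Between stems, 12 of the 84 pathway genes were higher and 13 lower in CT26_102, 14.3% and 15.5%, against 12.5% and 9.44% of all tested genes. Those higher included the glutathione transferases Gsta4, at 28.4 and 28.3 FPKM in CT26_102_R and CT26_102, against 12.3 and 9.86 in CT26_CTL_R and CT26_CTL (limma adjusted p = 0.0104), and Gstm1, at 40.6 and 44.2 against 17.0 and 22.3 (limma adjusted p = 0.0126), each of which has close paralogs. Ptgr1, prostaglandin reductase 1, was at 13.2 and 8.65 FPKM in stem CT26_102, against 4.31 and 3.31 in stem CT26_CTL (limma adjusted p = 0.0107). Among those lower was Chac1, which degrades glutathione and is a marker of the ATF4 response, at 15.0 and 16.2 FPKM in CT26_102_R and CT26_102, against 43.99 and 97.6 in CT26_CTL_R and CT26_CTL (log2 difference -2.01 ± 0.26, limma adjusted p = 0.0137). Txn2, mitochondrial thioredoxin, was at 16.5 and 14.3 FPKM in CT26_102_R and CT26_102, against 32.0 and 32.2 in CT26_CTL_R and CT26_CTL (limma adjusted p = 0.0137).

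The tested genes whose pattern over the 4 libraries was most like that of 3 members were found by the root mean square distance between centred log2(FPKM + 1) values. For Maff these included Nr1d1 (0.265), Gm44386 (0.281), Dusp14 (0.329) and Plk2 (0.335). Nr1d1, the nuclear receptor REV-ERB alpha of the circadian clock, was at 37.5 and 63.5 FPKM in CT26_102_R and CT26_CTL_R, against 8.83 and 16.5 in CT26_102 and CT26_CTL. For Hmox1 they were Mllt11, Gm1943, Aim2, Avpi1 and Txnip, at distances of 0.0660 to 0.0882. For Nqo1 they were Xpnpep2, Stard9, Tor4a, Rev3l and Sned1, at 0.0151 to 0.0417. With 4 libraries, many genes share a pattern, and the likeness is a description.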

How the data were processed

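RNA was measured in 4 libraries of CT26 cells, prepared with a SMARTer mRNA-seq kit per the labels. The deposited values are FPKM per gene as the authors computed them. The submitters' processing notes name the builds GRCm38 and mm10. The aligner, counting tool and strand setting are not stated in the sources used here.

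Positions and exonic lengths came from GENCODE M21 (GRCm38), which holds 55154 of the 55335 identifiers. Steps between low values gave the depth: within 0.05 fragments, 45.3% to 48.1% of values up to 5 fragments were whole. For genes with several transcripts, 45.8% to 49.4% were whole with the length of all exons combined and 13.9% to 15.0% with the longest transcript, so the FPKM are taken as scaled to all exons. Levels of genes with long unused exons are thereby understated, and fragment numbers are approximate.

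The 11955 genes that reached 1 FPKM in 2 or more libraries were tested on log2(FPKM + 1), which understates folds of low genes, with limma 3.58.1 in R 4.3.3 (mean-variance trend, two-sided, Benjamini-Hochberg threshold 0.05). Both the labelled group and the title stem were terms. The script was tested on simulated data. No label says that libraries are separate cultures. The p-values and SEs of the fit with both terms measure how far the pairs of libraries disagree, moderated by the spread of all genes. That disagreement is the interaction of labelled group and stem, and it may also be technical. Effects within 1 stem have no replicate, and the interaction was not tested. With 2 libraries against 2, an exact permutation test of single genes was not run. The members and lists were chosen with earlier results of these data known. Named genes were all members, Fosl2, every large Maf and CNC gene, at most the 4 genes per pathway list that were called in either comparison with the largest differences, and the 5 genes nearest in pattern to Maff, Hmox1 and Nqo1. Gclc, Gsto1, Ephx1, Ugt1a7c, Gpx1 and the marker genes fall outside that rule and were named after their values were seen. Some genes that the rule names are not reported here. Alternatives were no second term, pseudocounts of 0.1 and 0.5, no filter or a mean of at least 5 FPKM, 2 rescalings, no trend, and leaving out each library.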

Additional observations from a re-analysis of the deposited data

Results flagged for a closer look

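Txnrd1 moved in opposite directions with suffix R, by a log2 difference of 0.14 in stem CT26_102 and of -0.037 in stem CT26_CTL, each from 1 library against 1. Keap1 differed in opposite directions between stems, by -0.47 (CT26_102_R minus CT26_CTL_R) with the suffix and 0.21 (CT26_102 minus CT26_CTL) without it. Neither difference between pairs was tested, since no pair has a replicate. No labelled group has the 4 libraries that a search for outlying samples needs.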

How the results depend on the processing

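With both terms 905 genes were higher and 636 lower with suffix R, and 1494 higher and 1129 lower in stem CT26_102. Without the second term (no replicate block by stem), limma called 0 and 1 between labelled groups (1281 at an unadjusted p under 0.05) and 28 and 6 between stems (2000 unadjusted). Without the filter on low values it called 0 in every direction (4937 and 5802 unadjusted). Upper-quartile rescaling gave 937 higher and 1011 lower between labelled groups, 48.1% of calls upward in place of 58.7%. Median-of-ratios rescaling gave 1046 higher and 1544 lower between stems, 40.4% upward in place of 57.0%. With the tested division alone and 1 library left out, leaving 1 library in 1 arm that is assumed to vary like the others, limma called 0 higher and 3 lower between labelled groups without CT26_102_R, 1 and 1 without CT26_CTL_R, 4 and 2 without CT26_102 and 9 and 2 without CT26_CTL. Between stems it called 13 and 3, 0 and 0, 4 and 0, and 6 and 1 without the same libraries. With both terms, 3 libraries leave no residual degree of freedom, so member values are then those of the remaining pair, as given above.

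Under the 8 alternatives, the log2 difference between labelled groups stayed between 2.27 and 2.42 for Maff and between 1.12 and 1.199 for Hmox1, and both calls held in 6. Their adjusted p ran from 0.00253 to 0.427 for Maff and from 0.0167 to 0.455 for Hmox1. Between stems the Maff call held in 6 of 8 (adjusted p from 0.00834 to 0.668), and those of Nqo1 (0.0305 to 0.283), Txnrd1 (0.0265 to 0.264) and Srxn1 (0.0245 to 0.267) in 5 of 8. The signs of Nfe2l2 and Txnrd1 between labelled groups turned with upper-quartile rescaling, to -0.0081 and -0.0059. Without the second term, the differences of that division remain in the residual, and without the filter 27670 genes were tested in place of 11955. The cause of these changes was not tested.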
